A study of Mus musculus with 6 samples.

Results

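The genes described here are 37 lysosomal genes, taken by name from a list of cathepsins, glycosidases, lipid hydrolases, lysosomal membrane proteins and subunits of the vacuolar proton pump, with the transcription factor gene Tfeb. All 37 were among the 23337 gene symbols of the deposited count table, and all 37 passed the filter on low counts that left 12923 genes to be tested. They fall into 8 cathepsin genes, 10 genes for glycosidases and a sulfatase, 5 for lipid hydrolases and activators, 2 for other luminal proteins, 5 for membrane proteins, 6 pump genes and Tfeb. RNA was sequenced from macrophages that had been grown out of mouse bone marrow in a medium with 10% M-CSF, the macrophage growth factor. Cells with a Ch25h knockout (Ch25hKO) lacked cholesterol 25-hydroxylase, which makes an oxysterol that LXRs can bind. Cells of the LXR double knockout (LXRdKO) lacked both liver X receptors, LXRα and LXRβ, encoded by Nr1h3 and Nr1h2, which sense oxysterols. Wild-type cells (WT) carried neither deletion. All cells were labelled C57BL/6, were taken on day 7 of culture and had 8 h with LPS, a bacterial cell wall component, at 100 ng/ml, so that no value here gives the response to LPS. Each genotype had 2 libraries. No source used here says that libraries came from separate cultures or animals, or which part of each gene was deleted, so p-values measure the spread between libraries, which may be technical.

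Lysosomes are acidic organelles in which macrophages break down what they engulf. Soluble hydrolases act in the lumen, heavily glycosylated proteins line the membrane, and a rotary ATPase pumps protons inward with a peripheral part that splits ATP and a membrane part that carries the protons. Transcription factors of the TFEB family are known to bind a short palindrome, CACGTG, near the start of many lysosomal genes.

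Total counts were between 41650513 and 45872964 per library, and the lysosomal genes took between 2.45% and 2.66% of them. Ch25h fell to 1.61% of its WT level in Ch25hKO, Nr1h3 to 5.64% and Nr1h2 to 2.59% in LXRdKO, so the targeted genes matched the labels. The 7 macrophage markers summed to between 16490 and 17110 CPM, the counts scaled to a common library size, in Ch25hKO, 19600 and 19810 CPM in LXRdKO, and 16470 and 17920 CPM in WT. In edgeR's quasi-likelihood test 1 of the 7 macrophage markers (Emr1, 14.3%) rose and 2 (Mertk and Fcgr1, 28.6%) fell in Ch25hKO. In LXRdKO 5 rose (71.4%) and none fell. Of genes with a mean of at least 5 CPM, 25.2% rose and 23.0% fell in Ch25hKO, and 23.0% rose and 16.7% fell in LXRdKO. With 7 markers, the distance from those shares was not tested. Summed markers of other cells were low but differed: stromal markers came to between 32.2 and 34.6 CPM in Ch25hKO, 15.9 and 17.7 CPM in LXRdKO, and 13.5 and 14.9 CPM in WT. For dendritic cell markers the ranges were 14.0 to 14.7 CPM in Ch25hKO, 23.7 to 26.2 CPM in LXRdKO, and 29.5 to 29.9 CPM in WT. Neutrophil markers gave 52.4 to 55.2 CPM in Ch25hKO, 19.4 to 19.9 CPM in LXRdKO and 39.6 to 40.4 CPM in WT, most of it S100a8, while the granule genes Elane and Prtn3 had at most 1 count in any library. The part of these cells in the lysosomal values was not tested. In RNA from bulk cultures, fewer cells of a type and less RNA per cell cannot be told apart. The WT libraries stood apart from each other in these genes: 29 of the 37 were higher in replicate 1 than in replicate 2, with a median log2 ratio of 0.08, against a median of -0.00 over all genes tested. In Ch25hKO 34 of 37 were lower in replicate 1 (median -0.04), and in LXRdKO 23 of 37 were (median -0.01).

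CACGTG was found in a larger share of the promoter windows of these genes than of all genes, and the stretches that carry it are shown for 5 genes with a site outside the annotated gene body. RefSeq windows on GRCm38.p6, from 250 bases before to 50 bases after a start, were given for 30 of the 37 genes. CACGTG, which reads the same on both strands, was in a window of 11 of the 30 (36.7%), against 1457 of 15725 genes of the table with a window (9.27%). TCACGTG on either strand, which contains it, was in 10 of the 30 (33.3%), against 804 of 15725 genes (5.11%). The holders were 3 cathepsin genes (Ctsa, Ctsd, Ctsl), 4 glycosidase genes (Gaa, Gla, Glb1, Naglu), the membrane protein genes Lamp1 and Mcoln1, and the pump genes Atp6v0d1 and Atp6v1a. None of the 5 lipid hydrolase and activator genes held it, of which Asah1 had no window. The stretches below run 5′ to 3′ on the strand of the gene, with CACGTG in capitals.
Gla, chrX:134601179-134601247, minus strand: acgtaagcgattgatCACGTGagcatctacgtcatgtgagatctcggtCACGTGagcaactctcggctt
Gaa, chr11:119267808-119267843, plus strand: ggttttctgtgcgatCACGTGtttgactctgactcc
Glb1, chr9:114401015-114401050, plus strand: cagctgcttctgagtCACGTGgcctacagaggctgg
Ctsd, chr7:142388052-142388077, minus strand: tccccCACGTGacctgtatccagtca
Lamp1, chr8:13159085-13159160, plus strand: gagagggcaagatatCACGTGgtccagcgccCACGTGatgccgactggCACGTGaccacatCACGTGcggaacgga
Lamp1 carried 4 copies between 61 and 15 bases before its start, and Gla carried 2, at 227 and 194 bases. Besides the Ctsd site shown, at 245 bases before the RefSeq start, a second one, at 98 bases, lies inside the annotated gene body and is not shown. A match describes letters only and shows no binding.

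Per kilobase of exon, these transcripts differed widely in level. In WT the other luminal proteins, Grn and Tpp1, had a median of 379.5 CPM per kilobase, which lies between 728.5 for Grn and 30.5 for Tpp1. Cathepsin genes had a median of 299.9 CPM per kilobase in WT, membrane protein genes 134, pump genes 72.5, lipid hydrolase and activator genes 43.7 and glycosidase and sulfatase genes 15.3. Ctsd, the main aspartic protease of lysosomes, stood highest at 1306 CPM per kilobase in Ch25hKO, 1297 in LXRdKO and 1554 in WT. Ctsb, a cysteine protease, followed with 968 CPM per kilobase in Ch25hKO, 1045 in LXRdKO and 1018 in WT. The lowest gene was Tfeb, with 0.976 CPM per kilobase in Ch25hKO, 1.08 in LXRdKO and 0.954 in WT. Atp6v0d2, a pump subunit isoform of osteoclasts and some macrophages, was the next lowest, with 2.63 CPM per kilobase in Ch25hKO, 2.71 in LXRdKO and 1.94 in WT. Per kilobase of the longest transcript this order was reversed in WT, with 2.31 for Tfeb and 2.08 for Atp6v0d2. Its ubiquitous counterpart Atp6v0d1 had 74.8 CPM per kilobase in Ch25hKO, 66.7 in LXRdKO and 69.95 in WT. The plot of levels per length shows that the differences between genes were far wider than those between genotypes. Gene positions given below are those of the gene annotation of GRCm38 used here.

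In Ch25hKO against WT the lysosomal genes that changed nearly all fell. With edgeR at an adjusted p under 0.05, 14 of 37 fell, 1 rose and 22 did not pass. That is 37.8% lower and 2.70% higher, while 19.5% of all genes tested fell and 19.8% rose. All of the lysosomal genes averaged 5 CPM or more, and among the 8141 genes at that level 23.0% fell and 25.2% rose. The median log2 fold change was -0.07 for the 37 genes and 0.01 for all genes. The called changes were small, between 0.15 and 0.64 on the log2 scale with a median size of 0.25. The number that fell was 7 without Ch25hKO replicate 1, 11 without WT replicate 1 and 19 without WT replicate 2, and the number that rose was 6 without WT replicate 1 and 0 without either Ch25hKO library. Numbers over all genes also shifted when a library was left out, and whether those of the lysosomal genes shifted more was not tested. Gla, Gusb, Galns, Manba, Ctsk, Ppt1 and Scarb2 were called lower in all 15 alternative fits.

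In LXRdKO against WT changes went both ways, with 6 genes higher, 9 lower and 22 that did not pass in the edgeR test. These are 16.2% higher and 24.3% lower, beside 16.4% and 15.5% of all genes tested, and beside 23.0% and 16.7% of the genes with a mean of at least 5 CPM. The share that rose was close to that of all genes and below that of genes at this level. The median log2 fold change was 0.01 for the 37 genes and 0.00 for all genes, and called sizes ran between 0.20 and 0.61. Gm2a, Ctsh, Ctsc and Man2b1 were called higher, and Gusb, Manba, Atp6v1h, Atp6v1a, Gaa and Hexa lower, in all 14 alternative fits. Both knockouts were set against the same WT libraries, so the 2 comparisons are not independent of each other.

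LXRdKO against Ch25hKO, the direct test of how the knockouts differ, called 13 genes higher and 6 lower, and 18 did not pass. That is 35.1% higher and 16.2% lower, beside 19.3% and 18.6% of all genes tested and 25.8% and 22.2% of those with a mean of at least 5 CPM. The median log2 difference was 0.08, against -0.01 over all genes. Ctsh, Gm2a, Ctsc, Ctsk, Gla, Psap, Atp6v1b2, Laptm4a and Scarb2 were called higher and Gaa and Atp6v1h lower in all 14 alternative fits. Fewer than 6 genes were called lower without any 1 of the 4 libraries compared. Numbers over all genes shifted too, and whether those of the lysosomal genes shifted more was not tested.

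**Figure D1:**
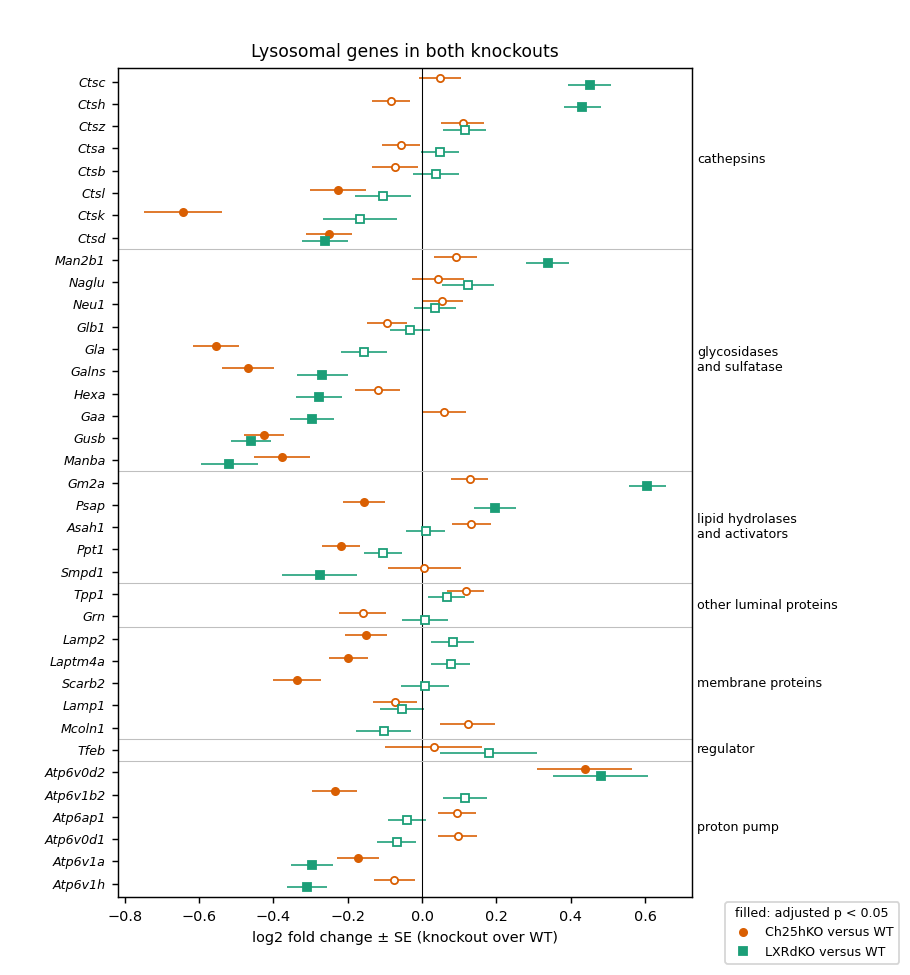
Log2 fold change ± SE of each lysosomal gene in Ch25hKO over WT (circles) and LXRdKO over WT (squares), with filled symbols for an edgeR adjusted p under 0.05. Filled circles lie left of 0 except for Atp6v0d2, while filled squares lie on both sides, with Gm2a at 0.61 and Manba at -0.52.

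Among the 8 cathepsin genes, 3 fell (37.5%) and none rose in Ch25hKO, and 2 rose (25.0%) and 1 fell (12.5%) in LXRdKO. Of genes at 5 CPM or more, 23.0% fell and 25.2% rose in Ch25hKO, and 16.7% fell and 23.0% rose in LXRdKO. The LXRdKO shares of the cathepsin genes lie near those, and the difference between the counts was not tested. Ctsh (chr9:90054152-90076089), an aminopeptidase, had 134 and 138 CPM in Ch25hKO, 194 and 195 CPM in LXRdKO, and 141 and 148 CPM in WT. Both LXRdKO libraries lay above all others. Its log2 fold change was 0.43 ± 0.05 in LXRdKO against WT (edgeR adjusted p = 3.82e-06) and 0.52 ± 0.05 in LXRdKO against Ch25hKO (edgeR adjusted p = 2.4e-07). Ctsc (chr7:88278085-88310888), a dipeptidyl peptidase that activates granule serine proteases, had 1892 and 2001 CPM in Ch25hKO, 2570 and 2577 CPM in LXRdKO, and 1920 and 1845 CPM in WT. Again the LXRdKO libraries were the highest, with no overlap, 1.37-fold above WT (0.45 ± 0.06 on the log2 scale, edgeR adjusted p = 1.02e-05) and 1.32-fold above Ch25hKO (0.40 ± 0.06, edgeR adjusted p = 2.02e-05). In Ch25hKO neither gene passed the test against WT, with log2 values of -0.08 ± 0.05 for Ctsh and 0.05 ± 0.06 for Ctsc.

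Ctsd (chr7:142375911-142388038) was lower in both knockouts by about the same amount. It had 2953 and 3187 CPM in Ch25hKO, 3037 and 3064 CPM in LXRdKO, and 3794 and 3511 CPM in WT, and neither knockout overlapped WT. The log2 fold change was -0.25 ± 0.06 in Ch25hKO (edgeR adjusted p = 0.0037) and -0.26 ± 0.06 in LXRdKO (edgeR adjusted p = 0.00369). The difference between the knockouts was -0.01 ± 0.06 and their libraries overlapped. The Ch25hKO call was lost without Ch25hKO replicate 1, and the LXRdKO call without LXRdKO replicate 1. Both fits leave 1 library in the group. Over the alternative fits the log2 fold change ran between -0.32 and -0.19 in Ch25hKO, and between -0.33 and -0.20 in LXRdKO. Of its exons 34.4% also belong to the predicted gene Gm49369 on the same strand, so its count is uncertain to that extent.

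Ctsk (chr3:95499256-95509362), the collagen-degrading cathepsin best known from osteoclasts, had 6.02 and 7.20 CPM in Ch25hKO, 8.93 and 9.46 CPM in LXRdKO, and 9.93 and 10.7 CPM in WT. Both Ch25hKO libraries were below all others, and LXRdKO lay just under WT. It fell 1.56-fold in Ch25hKO against WT, the largest change of a lysosomal gene there (-0.64 ± 0.10 on the log2 scale, edgeR adjusted p = 8.81e-05). In LXRdKO the log2 fold change was -0.17 ± 0.10 (edgeR adjusted p = 0.221), and LXRdKO exceeded Ch25hKO by 0.48 ± 0.11 (edgeR adjusted p = 0.00149). The 9 osteoclast markers summed to between 199.9 and 209 CPM in Ch25hKO, 206 and 209 CPM in LXRdKO, and 214 and 235 CPM in WT, and Oscar had 5 counts or fewer in every library. Most of that sum was Tnfrsf11a, and the other 8 summed to between 41.6 and 44.2 CPM in Ch25hKO, 52.3 and 54.0 CPM in LXRdKO, and 34.4 and 35.4 CPM in WT, with WT the lowest. In Ch25hKO 3 of the 8 markers tested (Ocstamp, Dcstamp, Tnfrsf11a) fell and 2 (Calcr, Acp5) rose. Of all genes tested, 19.5% fell and 19.8% rose there. In LXRdKO 4 of the 8 (Tnfrsf11a, Ocstamp, Calcr, Mmp9) fell and 2 (Acp5, Nfatc1) rose. Of all genes tested, 15.5% fell and 16.4% rose in LXRdKO. With 8 markers, the distance from those shares was not tested. The part of these markers in the Ctsk value was not tested either. Ctsl, a cysteine endopeptidase, also fell in Ch25hKO (-0.23 ± 0.08, edgeR adjusted p = 0.0265), but the call was lost in 7 of 15 alternative fits, and WT replicate 1 (1973 CPM) stood well above WT replicate 2 (1602 CPM). Ctsa, Ctsb and Ctsz passed in none of the comparisons, with log2 values between -0.07 and 0.11 in both knockouts.

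**Figure D2:**
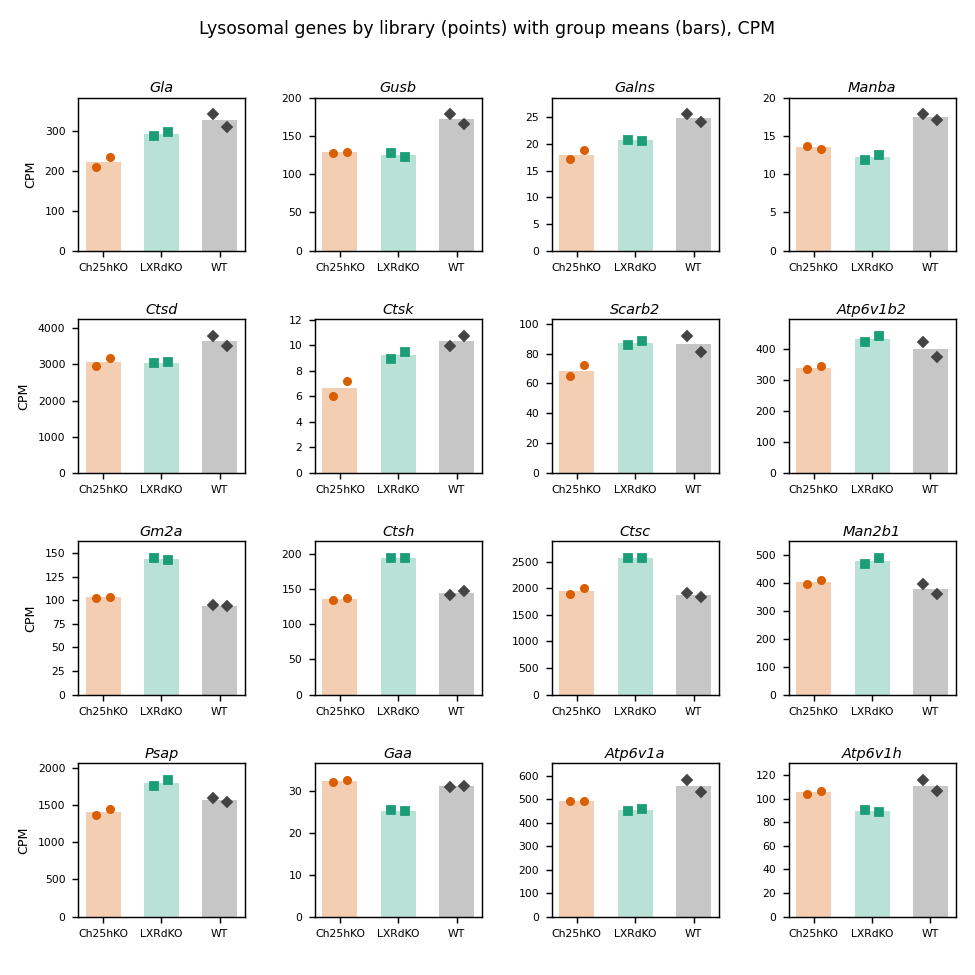
Level of 16 lysosomal genes in CPM in each library (points) with the mean of each genotype (bars) for Ch25hKO, LXRdKO and WT. Both Ch25hKO libraries are the lowest for Gla, Galns, Ctsk, Scarb2 and Atp6v1b2, both LXRdKO libraries the highest for Gm2a, Ctsh, Ctsc, Man2b1 and Psap, and both knockouts lie below WT for Gusb, Manba and Ctsd.

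Genes for glycosidases and the sulfatase mostly fell where they changed. In Ch25hKO 4 of 10 fell (40.0%) and none rose, beside 23.0% and 25.2% of genes at 5 CPM or more. In LXRdKO 5 fell (50%) and 1 rose (10%), beside 16.7% and 23.0%. With so few genes, the distance from those shares was not tested. Gla (chrX:134588149-134601125), the alpha-galactosidase that is lost in human Fabry disease, had 211 and 235 CPM in Ch25hKO, 288 and 298 CPM in LXRdKO, and 343 and 311 CPM in WT. The Ch25hKO libraries were the lowest, and LXRdKO lay between them and WT. Gla fell 1.47-fold in Ch25hKO (-0.55 ± 0.06 on the log2 scale, edgeR adjusted p = 1.61e-06), while LXRdKO gave -0.16 ± 0.06 (edgeR adjusted p = 0.0616) and exceeded Ch25hKO by 0.40 ± 0.06 (edgeR adjusted p = 5.3e-05). Galns (chr8:122578242-122611463), the sulfatase that acts on keratan sulfate, had 17.2 and 18.8 CPM in Ch25hKO, 20.8 and 20.5 CPM in LXRdKO, and 25.6 and 24.2 CPM in WT. The order was the same, Ch25hKO lowest, LXRdKO between and WT highest, without overlap. Its log2 fold change was -0.47 ± 0.07 in Ch25hKO (edgeR adjusted p = 4.07e-05) and -0.27 ± 0.07 in LXRdKO (edgeR adjusted p = 0.00649). The LXRdKO call did not hold with its replicate 2 left out (edgeR adjusted p = 0.0612).

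Gusb and Manba were lower in both knockouts. Gusb (chr5:129989011-130003049), the beta-glucuronidase, had 127 and 129.7 CPM in Ch25hKO, 128 and 122 CPM in LXRdKO, and 179 and 166 CPM in WT. All knockout libraries lay below both WT libraries, and those of the knockouts overlapped. The log2 fold change was -0.42 ± 0.05 in Ch25hKO (edgeR adjusted p = 6.73e-06) and -0.46 ± 0.05 in LXRdKO (edgeR adjusted p = 3.81e-06), with a difference between knockouts of -0.04 ± 0.05. Manba (chr3:135485611-135571404), the beta-mannosidase, had 13.7 and 13.3 CPM in Ch25hKO, 11.9 and 12.5 CPM in LXRdKO, and 17.9 and 17.1 CPM in WT. LXRdKO was the lowest, next to Ch25hKO, and WT lay clearly above. Its log2 fold change was -0.38 ± 0.08 in Ch25hKO (edgeR adjusted p = 0.00073) and -0.52 ± 0.08 in LXRdKO (edgeR adjusted p = 5.17e-05), while the difference between knockouts of -0.14 ± 0.08 did not pass (edgeR adjusted p = 0.173).

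Gaa and Hexa fell in LXRdKO and did not pass in Ch25hKO, and Man2b1 went the other way. Gaa (chr11:119267887-119285454), which splits glycogen in the lysosome and is lost in human Pompe disease, had 32.2 and 32.7 CPM in Ch25hKO, 25.4 and 25.3 CPM in LXRdKO, and 31.0 and 31.3 CPM in WT. The LXRdKO libraries stood alone below the other 4. The log2 value was -0.30 ± 0.06 against WT (edgeR adjusted p = 0.000852) and -0.36 ± 0.06 against Ch25hKO (edgeR adjusted p = 9.84e-05). Man2b1 (chr8:85083270-85098282), the alpha-mannosidase, had 397 and 408 CPM in Ch25hKO, 466 and 489 CPM in LXRdKO, and 396 and 360.4 CPM in WT. Both LXRdKO libraries were the highest, 1.26-fold above WT (0.34 ± 0.06 on the log2 scale, edgeR adjusted p = 0.000187) and 1.19-fold above Ch25hKO (0.25 ± 0.06, edgeR adjusted p = 0.00205). The call against Ch25hKO was lost without Ch25hKO replicate 1 or LXRdKO replicate 2. Hexa, the alpha subunit of beta-hexosaminidase, gave -0.28 ± 0.06 in LXRdKO (edgeR adjusted p = 0.0021) and -0.12 ± 0.06 in Ch25hKO (edgeR adjusted p = 0.133). Its difference between the knockouts, -0.16 ± 0.06, did not pass (edgeR adjusted p = 0.0525). Glb1 (beta-galactosidase), Naglu (which trims heparan sulfate) and Neu1 (the lysosomal sialidase) passed in no comparison, with log2 values between -0.09 and 0.12 in both knockouts.

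Of the 5 genes for lipid hydrolases and their activators, 2 fell and none rose in Ch25hKO, and 2 rose and 1 fell in LXRdKO. The shares for genes at 5 CPM or more were 23.0% lower and 25.2% higher in Ch25hKO, and 16.7% and 23.0% in LXRdKO. With 5 genes, the distance from those shares was not tested. Gm2a (chr11:55098115-55113029), the activator that presents gangliosides to beta-hexosaminidase, had 103 and 104 CPM in Ch25hKO, 145 and 142 CPM in LXRdKO, and 94.7 and 94.0 CPM in WT. Both LXRdKO libraries stood well above the rest, and Ch25hKO lay slightly above WT. Gm2a rose 1.52-fold in LXRdKO, the largest change of a lysosomal gene there (0.61 ± 0.05 on the log2 scale, edgeR adjusted p = 5.37e-08). LXRdKO exceeded Ch25hKO by 0.48 ± 0.05 (edgeR adjusted p = 4.55e-07), and Ch25hKO against WT gave 0.13 ± 0.05 (edgeR adjusted p = 0.0506). Psap (chr10:60277627-60302597), the precursor of the saposins that help hydrolases reach sphingolipids, had 1371 and 1448 CPM in Ch25hKO, 1758 and 1843 CPM in LXRdKO, and 1592 and 1550 CPM in WT. LXRdKO was the highest, WT lay between and Ch25hKO was the lowest, without overlap. LXRdKO exceeded Ch25hKO by 0.35 ± 0.06 (edgeR adjusted p = 7.94e-05). Against WT the log2 fold change was -0.16 ± 0.06 in Ch25hKO (edgeR adjusted p = 0.0376), lost in 8 of 15 alternative fits, and 0.20 ± 0.06 in LXRdKO (edgeR adjusted p = 0.0137), lost without either LXRdKO library.

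Of the enzymes of the group, Ppt1 fell in Ch25hKO, Smpd1 fell in LXRdKO, and Asah1 passed in no comparison. Ppt1 (chr4:122836242-122859175), which removes fatty acids from proteins, had 138 and 139 CPM in Ch25hKO, 146 and 152 CPM in LXRdKO, and 164 and 157 CPM in WT. The 3 genotypes did not overlap, with Ch25hKO lowest and WT highest. It fell in Ch25hKO (-0.22 ± 0.05, edgeR adjusted p = 0.00243) and gave -0.11 ± 0.05 in LXRdKO (edgeR adjusted p = 0.125). The difference of LXRdKO from Ch25hKO, 0.11 ± 0.05, did not pass (edgeR adjusted p = 0.0965). Smpd1, acid sphingomyelinase, was lower in LXRdKO (-0.28 ± 0.10, edgeR adjusted p = 0.0443), a call lost in 9 of 14 alternative fits. Asah1, acid ceramidase, gave 0.13 ± 0.05 in Ch25hKO (edgeR adjusted p = 0.0507) and 0.01 ± 0.05 in LXRdKO. Of the other luminal proteins, Tpp1, a tripeptidyl peptidase, and Grn, the progranulin precursor, passed in neither knockout against WT, with log2 values of 0.12 ± 0.05 and -0.16 ± 0.06 in Ch25hKO. Grn was higher in LXRdKO than in Ch25hKO (0.17 ± 0.06, edgeR adjusted p = 0.044), and that call was lost in 5 of 14 alternative fits.

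**Figure D3:**
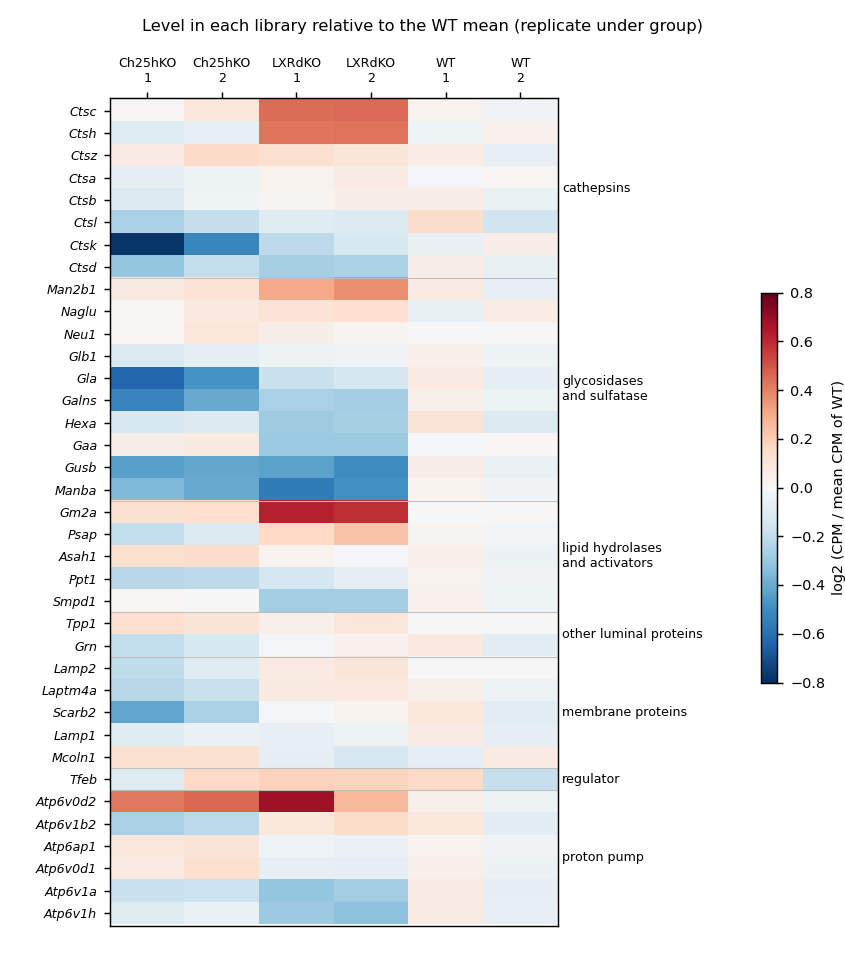
Log2 ratio of each library's CPM to the WT mean for the 37 lysosomal genes, by role, with blue for lower and red for higher. The LXRdKO columns are red for Ctsc, Ctsh, Man2b1 and Gm2a, both knockouts are blue for Gusb and Manba, and in most rows WT replicate 1 is pale red and WT replicate 2 pale blue.

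Among the 5 membrane protein genes, 3 fell (60.0%) in Ch25hKO and none passed in LXRdKO against WT. Of genes at 5 CPM or more, 23.0% fell in Ch25hKO, and 16.7% fell and 23.0% rose in LXRdKO. With 5 genes, the distance from those shares was not tested. Scarb2 (chr5:92441314-92506833), the receptor that carries glucocerebrosidase to lysosomes, had 65.0 and 72.4 CPM in Ch25hKO, 86.1 and 88.2 CPM in LXRdKO, and 92.0 and 81.4 CPM in WT. Ch25hKO was the lowest, while LXRdKO and WT overlapped. Its log2 fold change was -0.34 ± 0.06 in Ch25hKO (edgeR adjusted p = 0.000477) and 0.01 ± 0.06 in LXRdKO, and LXRdKO exceeded Ch25hKO by 0.34 ± 0.06 (edgeR adjusted p = 0.000353). Laptm4a (chr12:8921664-8938742), a small membrane-spanning protein of late endosomes and lysosomes, had 203 and 209.5 CPM in Ch25hKO, 249 and 250.4 CPM in LXRdKO, and 243 and 230.5 CPM in WT. Again Ch25hKO stood lowest, at -0.20 ± 0.05 against WT (edgeR adjusted p = 0.00538), with LXRdKO 0.27 ± 0.05 above it (edgeR adjusted p = 0.000346). The call against WT was lost without Ch25hKO replicate 1 (edgeR adjusted p = 0.0834). Lamp2, a glycoprotein of the lysosomal membrane with a role in autophagy, fell in Ch25hKO (-0.15 ± 0.06, edgeR adjusted p = 0.0446), a call lost in 8 of 15 alternative fits. Lamp1, its close relative, whose promoter stretch above holds 4 palindromes, gave -0.07 ± 0.06 in Ch25hKO and -0.05 ± 0.06 in LXRdKO, and its libraries overlapped in each comparison. Mcoln1, a cation channel of the lysosomal membrane, passed in neither knockout against WT, and was lower in LXRdKO than in Ch25hKO (-0.23 ± 0.07, edgeR adjusted p = 0.0221), a call lost in 5 of 14 alternative fits.

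The 6 pump genes did not change as a block. In Ch25hKO 2 fell (33.3%) and 1 rose (16.7%), and in LXRdKO 2 fell (33.3%) and 1 rose (16.7%). Between the knockouts 1 was higher and 3 lower in LXRdKO. The shares for genes at 5 CPM or more were 23.0% lower and 25.2% higher in Ch25hKO, and 16.7% and 23.0% in LXRdKO. Between the knockouts 25.8% of those were higher and 22.2% lower in LXRdKO. With 6 genes, the distance from those shares was not tested. Of the subunits of the ATP-splitting ring, in the peripheral part, both fell in Ch25hKO and Atp6v1a alone passed in LXRdKO. Atp6v1a (chr16:44085402-44139705), the catalytic subunit, had 493 and 495 CPM in Ch25hKO, 449 and 459 CPM in LXRdKO, and 584 and 529.7 CPM in WT. LXRdKO was the lowest, Ch25hKO next and WT the highest, but the difference between the knockouts of -0.12 ± 0.06 did not pass (edgeR adjusted p = 0.1). Its log2 fold change was -0.17 ± 0.06 in Ch25hKO (edgeR adjusted p = 0.0215), lost without WT replicate 1 or either Ch25hKO library, and -0.30 ± 0.06 in LXRdKO (edgeR adjusted p = 0.0006). Atp6v1b2 (chr8:69088646-69113711), its partner in that ring, had 333 and 343 CPM in Ch25hKO, 421 and 441 CPM in LXRdKO, and 421 and 374 CPM in WT. Here Ch25hKO was the lowest, and LXRdKO and WT overlapped. Atp6v1b2 gave -0.24 ± 0.06 in Ch25hKO (edgeR adjusted p = 0.0044), which did not hold with Ch25hKO replicate 1 left out (edgeR adjusted p = 0.0664). It gave 0.12 ± 0.06 in LXRdKO (edgeR adjusted p = 0.153), and LXRdKO exceeded Ch25hKO by 0.35 ± 0.06 (edgeR adjusted p = 0.00013). Atp6v1h (chr1:5070018-5162529), a regulatory subunit of the peripheral part, had 104 and 107 CPM in Ch25hKO, 90.6 and 88.6 CPM in LXRdKO, and 116 and 106 CPM in WT. The LXRdKO libraries were the lowest, at -0.31 ± 0.05 against WT (edgeR adjusted p = 0.0003) and -0.24 ± 0.06 against Ch25hKO (edgeR adjusted p = 0.00233).

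Of the paired isoforms in the membrane part, Atp6v0d2 was called higher in both knockouts against WT and Atp6v0d1 in neither. The isoforms were not tested against each other. Atp6v0d2 (chr4:19876841-19922605) had 7.06 and 7.25 CPM in Ch25hKO, 8.43 and 6.31 CPM in LXRdKO, and 5.42 and 5.13 CPM in WT. All 4 knockout libraries lay above both WT libraries, with LXRdKO replicate 1 the highest and LXRdKO replicate 2 well below it. The log2 fold change was 0.44 ± 0.13 in Ch25hKO (edgeR adjusted p = 0.0114) and 0.48 ± 0.13 in LXRdKO (edgeR adjusted p = 0.00769). The Ch25hKO call was lost without either Ch25hKO library, and without LXRdKO replicate 1 the LXRdKO value was 0.26 (edgeR adjusted p = 0.208). It is an osteoclast marker in common use, and the osteoclast markers given above moved in both directions, with their part in its value not tested. Atp6v0d1 (chr8:105524465-105566047) had 131 and 137 CPM in Ch25hKO, 119.9 and 119 CPM in LXRdKO, and 129 and 122 CPM in WT. The LXRdKO libraries were the lowest and the Ch25hKO libraries the highest. It passed in neither knockout against WT (0.10 ± 0.05 in Ch25hKO and -0.07 ± 0.05 in LXRdKO), and was lower in LXRdKO than in Ch25hKO (-0.16 ± 0.05, edgeR adjusted p = 0.0188), a call lost without any 1 of the 4 libraries compared. Atp6ap1, an accessory protein of the pump, was also lower in LXRdKO than in Ch25hKO (-0.13 ± 0.05, edgeR adjusted p = 0.0447), and lost that call in 8 of 14 alternative fits.

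Tfeb, the regulator whose product is known to switch on lysosomal genes, had 5.03 and 6.03 CPM in Ch25hKO, 6.15 and 6.11 CPM in LXRdKO, and 6.05 and 4.77 CPM in WT. The Ch25hKO and WT libraries overlapped, and LXRdKO lay just above. Its log2 fold change was 0.03 ± 0.13 in Ch25hKO (edgeR adjusted p = 0.877) and 0.18 ± 0.13 in LXRdKO (edgeR adjusted p = 0.32). The transcript level does not measure its activity, which is known to be set by where in the cell the protein lies. Of the 11 genes with CACGTG in a promoter window, 4 fell (36.4%) and none rose in Ch25hKO (Gla, Ctsd, Atp6v1a and Ctsl). Of the 19 with a window but without the palindrome, 8 fell (42.1%) and none rose. Among genes at 5 CPM or more, 23.0% fell and 25.2% rose. In LXRdKO 3 of the 11 fell (27.3%) and none rose. Of the 19 without the palindrome 4 fell and 4 rose (21.1% each), beside 16.7% and 23.0% of genes at 5 CPM or more. Between the knockouts, 1 of the 11 was higher (9.09%) and 3 were lower (27.3%) in LXRdKO. Of the 19, 9 were higher (47.4%) and 2 lower (10.5%), beside 25.8% and 22.2% of genes at 5 CPM or more. These are counts without a test.

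Other genes of the pathway came from a list of 32 further lysosomal proteins, tested with edgeR. In Ch25hKO 3 rose (9.38%, against 19.8% of all genes tested) and 9 fell (28.1%, against 19.5%). In LXRdKO 11 rose (34.4%, against 16.4%) and 6 fell (18.8%, against 15.5%). Between the knockouts 13 were higher in LXRdKO (40.6%, against 19.3%) and 6 lower (18.8%, against 18.6%). The shares that fell in LXRdKO or were lower there than in Ch25hKO were thus near those of all genes. Most of the list averaged 5 CPM or more. At that level 25.2% of genes rose and 23.0% fell in Ch25hKO, and 23.0% rose and 16.7% fell in LXRdKO. Between the knockouts 25.8% were higher and 22.2% lower in LXRdKO. Lipa, the acid lipase that frees cholesterol from its esters, had 298 and 305 CPM in Ch25hKO, 427 and 433 CPM in LXRdKO, and 427 and 419 CPM in WT. Ch25hKO stood alone below the rest, at -0.49 ± 0.05 against WT (edgeR adjusted p = 6.85e-07), while LXRdKO gave 0.02 ± 0.05 and exceeded Ch25hKO by 0.51 ± 0.05 (edgeR adjusted p = 2.87e-07). Lipa lies 17.2 kb from Ch25h on chromosome 19, the locus altered in Ch25hKO. Acp2, the lysosomal acid phosphatase, had 317 and 312 CPM in Ch25hKO, 254 and 241 CPM in LXRdKO, and 220.1 and 228 CPM in WT, so that Ch25hKO was the highest. It rose by 0.49 ± 0.05 in Ch25hKO (edgeR adjusted p = 9.5e-07). Acp2 lies 51 bases from Nr1h3, the locus altered in LXRdKO, where its call (0.14 ± 0.05, edgeR adjusted p = 0.0465) was lost in 11 of 14 alternative fits.

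Ctss, the cathepsin that trims the invariant chain of MHC class II, had 3654 and 3840 CPM in Ch25hKO, 5254 and 5310 CPM in LXRdKO, and 4046 and 3787 CPM in WT. Like Ctsh and Ctsc, it was highest in both LXRdKO libraries (0.43 ± 0.06 against WT, edgeR adjusted p = 2.99e-05, and 0.50 ± 0.06 against Ch25hKO, edgeR adjusted p = 3.54e-06). Arsb, arylsulfatase B, had 20.9 and 23.2 CPM in Ch25hKO, 23.0 and 25.2 CPM in LXRdKO, and 33.6 and 32.7 CPM in WT. Like Gusb and Manba, it lay below WT in all knockout libraries, at -0.59 ± 0.07 in Ch25hKO (edgeR adjusted p = 2.65e-06) and -0.46 ± 0.07 in LXRdKO (edgeR adjusted p = 5.63e-05). Of its exons 39.9% overlap another gene. Slc17a5, which exports sialic acid from lysosomes, was higher in LXRdKO than in Ch25hKO by 0.51 ± 0.07 (edgeR adjusted p = 8.11e-06).

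Among 11 further pump subunits tested, 1 rose (9.09%) and 4 fell (36.4%) in Ch25hKO, against 19.8% and 19.5% of all genes. In LXRdKO 2 rose (18.2%) and 3 fell (27.3%), against 16.4% and 15.5%, and between the knockouts 2 were higher (18.2%) and 3 lower (27.3%) in LXRdKO, against 19.3% and 18.6%. Among genes at 5 CPM or more, the shares were 25.2% higher and 23.0% lower in Ch25hKO, and 23.0% and 16.7% in LXRdKO. Between the knockouts 25.8% of those were higher and 22.2% lower in LXRdKO. With so few pump subunits, 1 call moves a share by 9.09 percentage points. Atp6ap2, an accessory subunit also known as the prorenin receptor, had 95.1 and 97.6 CPM in Ch25hKO, 85.2 and 81.9 CPM in LXRdKO, and 111 and 104 CPM in WT. It was lowest in LXRdKO (-0.36 ± 0.05 against WT, edgeR adjusted p = 4.91e-05). Of 9 genes for sorting factors and relatives of Tfeb, 4 rose (44.4%) and 2 fell (22.2%) in each knockout against WT. The genes were not all the same: M6pr and Gnptab fell in Ch25hKO, Sort1 and Gnptg in LXRdKO. Between the knockouts Gnptab and Sort1 passed the test, and M6pr and Gnptg did not. Of genes at 5 CPM or more, 25.2% rose and 23.0% fell in Ch25hKO, and 23.0% rose and 16.7% fell in LXRdKO. The share of the 9 that fell in Ch25hKO was near that. Tfec, a transcription factor of the TFEB family, had 73.7 and 72.0 CPM in Ch25hKO, 48.1 and 50.5 CPM in LXRdKO, and 38.3 and 38.4 CPM in WT. Both Ch25hKO libraries stood well above LXRdKO, which lay above WT. It rose 1.90-fold in Ch25hKO (0.93 ± 0.05 on the log2 scale, edgeR adjusted p = 6.05e-10), rose by 0.36 ± 0.06 in LXRdKO (edgeR adjusted p = 7.25e-05), and was lower in LXRdKO than in Ch25hKO (-0.56 ± 0.05, edgeR adjusted p = 1.59e-07). Mitf, another member of that family, had 154 and 161 CPM in Ch25hKO, 167 and 170.0 CPM in LXRdKO, and 126 and 134 CPM in WT. All knockout libraries were above WT, at 0.28 ± 0.05 in Ch25hKO (edgeR adjusted p = 0.000347) and 0.38 ± 0.05 in LXRdKO (edgeR adjusted p = 2.72e-05). Tfe3, the remaining member beside Tfeb, had 112 and 121 CPM in Ch25hKO, 126 and 126 CPM in LXRdKO, and 108 and 108 CPM in WT. It gave 0.12 ± 0.05 in Ch25hKO (edgeR adjusted p = 0.0925) and rose by 0.22 ± 0.05 in LXRdKO (edgeR adjusted p = 0.00348). The difference between the knockouts, 0.11 ± 0.05, did not pass (edgeR adjusted p = 0.124). Tfe3 was added to the genes named so that the whole family is given.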

How the data were processed

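The deposited file is a table of raw counts by gene symbol, not normalized, with 1 column for each of 6 libraries. Bone marrow-derived macrophages were cultured with M-CSF and LPS, and cDNA was amplified before library construction, per the labels' protocols, so that reads are not independent molecules. The submitters' processing notes name CASAVA, STAR 2.3.0, HTSeq and mm10. Neither the annotation nor the mode or strand of counting is given in the sources used here. Where genes overlap, a read may have gone to either: Ctsb shares 12.8% of its exon bases with another gene on the other strand, Ctsa 17.4%, Ctsl 26.8%, Hexa 12.8% and Lamp1 9.31%, and Ctsd 34.4% and Glb1 5.49% with one on the same strand.

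Counts were tested with edgeR 4.0.16 in R 4.3.3 (filterByExpr, TMM scaling, 1 mean per genotype over all 6 libraries, robust quasi-likelihood F test, two-sided). The filter left 12923 genes with 99.98% of the counts, and p-values were adjusted over all of them by Benjamini-Hochberg and called at 0.05. The common biological coefficient of variation was 4.41%. CPM used TMM-scaled library sizes, and levels per kilobase used the merged exon length. In each genotype the replicates differed beyond sampling noise (chi-square over its degrees of freedom: 5.19 in Ch25hKO, 4.3 in LXRdKO and 12.4 in WT). The model was also run on simulated counts drawn with the spread estimated here, which cannot show whether that spread is technical.

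The lysosomal genes, lists and alternatives were chosen with earlier results of these data known. Full values were given for up to 8 called members of lowest p per comparison, for Ctsk, Atp6v0d1, Atp6v0d2 and Tfeb in any case, and for up to 4 other lysosomal genes per comparison. Alternatives were RLE and upper-quartile scaling, DESeq2 1.42.0, limma-voom (limma 3.58.1), no filter, at least 5 CPM in 2 libraries, a fit of the compared libraries alone, a block for the replicate number, and fits without 1 library, which leave a group with 1 library assumed to vary like the others. A crossed block and the background of genes with a mean of at least 5 CPM were added after the data were seen. No source used here says that replicate numbers pair the samples.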

Additional observations from a re-analysis of the deposited data

How the results depend on the processing

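In Ch25hKO against WT the lysosomal genes called higher numbered 2 with upper-quartile scaling, 2 with limma-voom, 3 with no filter and 0 to 6 with a library left out, in place of 1. Those called lower numbered 7 to 19 with a library left out, in place of 14. Over all genes, leaving out a library gave 1501 to 2478 higher in Ch25hKO, 1292 to 2097 higher and 1198 to 2232 lower in LXRdKO, and 1504 to 2828 lower in LXRdKO against Ch25hKO. Of lysosomal genes lower in LXRdKO than in Ch25hKO, 3 were called with DESeq2 and 2 to 9 with a library left out, in place of 6. The cause of these shifts was not tested, though fits with a library left out rest on fewer samples. The median level of the 37 genes in WT was 77.0 CPM per kilobase of the longest transcript, against 47.1 per kilobase of merged exons, which are longer by construction. Among values that never passed the test, Tfeb in Ch25hKO ran between -0.15 (without WT replicate 2) and 0.21, and was -0.11 without Ch25hKO replicate 2. Lipa in LXRdKO was -0.0092 with the 5 CPM filter and ran between -0.0049 (without WT replicate 2) and 0.036. Atp6v0d2 between the knockouts ran between -0.18 (without LXRdKO replicate 1) and 0.24. No called lysosomal gene changed sign.

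The replicate number as a block gave 1 lysosomal gene higher and 12 lower in Ch25hKO, 6 and 8 in LXRdKO, and 12 and 5 in LXRdKO against Ch25hKO. Deviations of libraries with the same number correlated at -0.105 between Ch25hKO and WT, -0.0127 between LXRdKO and WT and 0.0245 between LXRdKO and Ch25hKO. No clear shared deviation was thus seen, which cannot show whether the libraries were prepared in pairs. A block with the pairing crossed, for Ch25hKO and WT, gave 1 higher and 13 lower.

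With 2 libraries per genotype and no record of separate cultures, the smallest log2 differences called over all genes were 0.13 in each comparison, and a smaller or uncalled difference does not show that genes were equal. Atp6v0d2, Tfeb, Ctsk and Smpd1, the least counted of the lysosomal genes, have the widest standard errors.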
